A study of Mus musculus with 4 samples.

Results

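The neurons of 2 hippocampal single-nucleus RNA libraries were compared, 1 from wild-type mice and 1 from mice in which monoacylglycerol lipase (MAGL, the product of Mgll) was knocked out in neurons. Barcodes with at least 500 detected genes were sorted on 3 transcripts. The excitatory pool held at least 2 unique molecular identifiers (UMIs, counted RNA molecules) of Slc17a7, the vesicular glutamate transporter, and none of Gad1 or Gad2, the enzymes that make GABA. The inhibitory pool held at least 3 UMIs of Gad1 and Gad2 together and at most 1 of Slc17a7. This gave 9737 nuclei out of 60288 barcodes in the series. The excitatory pool had 4077 wild-type and 3375 neuron-knockout nuclei, and the inhibitory pool had 984 and 1301. Libraries of a total (global) knockout and of an astrocyte-specific knockout, sorted by the same rule, are given as side values. They had 8138 and 4581 excitatory nuclei and 3364 and 1213 inhibitory nuclei. All 4 groups are defined in the labels by genotype alone, from hippocampus, with no treatment. The labels give no strain, age, driver of the recombinase, deleted part of Mgll, allele carried by the controls or number of animals per library.

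MAGL is a serine hydrolase that splits the endocannabinoid 2-arachidonoylglycerol into glycerol and arachidonic acid. The lipid is made in the postsynaptic membrane by diacylglycerol lipases, crosses the synapse backwards and acts on the cannabinoid receptor CB1 on axon terminals, where it dampens transmitter release. In the hippocampus CB1 is densest on the terminals of cholecystokinin-bearing interneurons and is also present on glutamatergic terminals. MAGL acts in axon terminals and in astrocytes, which take up the lipid from the extracellular space.

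With 1 library per genotype there was no replicate of any condition and no test was possible. Nuclei are not replicates, since all nuclei of a library share its animals and its preparation, so the comparisons below describe these libraries. Levels are UMIs of a gene scaled to a pool total of 1000000 UMIs (CPM). Differences are log2 ratios of summed CPM, neuron knockout over wild type, with 1 UMI added to each sum. A gene was called when it differed at least 1.5-fold and had at least 200 UMIs over both libraries in the pool. Intervals are 95% intervals, exact conditional binomial for ratios, exact Poisson for levels and Clopper-Pearson for shares, and cover counting error only. In bulk sums of this kind a change in the make-up of a pool and a change of RNA per nucleus cannot be told apart.

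The excitatory pools rested on 49017886 UMIs in wild type and 37122838 in the neuron knockout, and the inhibitory pools on 10445636 and 13357352, with median depths per nucleus between 9630 and 11002 UMIs. The excitatory pool was 43.8% of kept wild-type barcodes (42.8 to 44.8) and 38.1% of neuron-knockout barcodes (37.1 to 39.1), and the inhibitory pool 10.6% (9.96 to 11.2) and 14.7% (13.96 to 15.45). The pools of these libraries shared 27 barcode sequences. Both libraries mixed sexes. Nuclei with Xist and no Y-linked UMI made up 48.8% of the wild-type and 40.9% of the neuron-knockout excitatory pool, and the total-knockout library was almost wholly male. In the excitatory pool the 13 mitochondrial transcripts listed in both files summed to 353 CPM in wild type, 74.7 in the neuron knockout, 225 in the astrocyte knockout and 335 in the total knockout. In the inhibitory pool they summed to 596, 133, 321 and 468 CPM. The 6 oligodendrocyte markers summed to 228, 160, 160 and 293 CPM in the excitatory pool and to 131, 46.9, 35.8 and 292 CPM in the inhibitory pool, in the same order. The 5 choroid plexus markers, led by Ttr, summed to 67.3, 20.3, 32.7 and 47.4 CPM in the excitatory pool. Among defining markers of other cells, Pdgfra of oligodendrocyte precursors was at 0 in at least 1 of the libraries compared in the excitatory pool, and Cspg4, Olig2 and the endothelial Flt1 and Cldn5 in the inhibitory pool. Markers of medium spiny neurons, a striatal type that the inhibitory gate can hold, summed to 45.2, 27.5, 18.6 and 152 CPM there. Mitochondrial RNA was lowest in the library labelled neuron knockout in both pools, and oligodendrocyte and choroid RNA stood below wild type. Their part in the results below was not tested.

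Markers that the sorting did not use separated the pools. Neurod2, a transcription factor of excitatory neurons, stood at 61.3 CPM in the wild-type and 60.3 in the neuron-knockout excitatory pool and at 2.78 and 3.37 in the inhibitory pools. Dlx6os1, a transcript of forebrain interneurons, stood at 458 and 503 CPM in the inhibitory pools and at 0.18 and 0.54 in the excitatory pools. The gates cut through a continuum. Nuclei just inside the excitatory gate, with 2 Slc17a7 UMIs, numbered 1281 in wild type and 1287 in the neuron knockout and had 722 and 721 CPM of Camk2a, a kinase of excitatory neurons. Those just outside, with 1 Slc17a7 UMI, numbered 1275 and 1621 and had 682 and 735 CPM. At the inhibitory gate, 126 wild-type and 194 neuron-knockout nuclei had 3 Gad UMIs and 176 and 189 had 2, with Erbb4, a receptor of interneurons, at 8271 and 6549 CPM inside and 7438 and 5643 outside.

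Mgll RNA (chr6:88724412-88828360, mm10) was at nearly the same level in the pooled neurons of both libraries. In the excitatory pool it stood at 102 CPM in wild type, 104 in the neuron knockout, 105 in the astrocyte knockout and 77.1 in the total knockout. The log2 ratio of neuron knockout over wild type was 0.03 (-0.03 to 0.09). In the inhibitory pool the levels were 122, 119, 133 and 112 CPM in the same order, and the log2 ratio was -0.03 (-0.14 to 0.08). Within nuclei grouped by marker scores, it ran from -0.04 to 0.08 in excitatory groups. Inhibitory groups went both ways, with 0.17 in Sst-marker, 0.10 in Pvalb-marker, -0.28 in CCK-marker, -0.30 in Lamp5-marker and, on 74 and 27 UMIs, -0.68 in Vip-marker nuclei. Only the total knockout stood below the other libraries in the excitatory pool. Since the labels do not say which part of the gene was deleted, and UMIs of a shortened transcript still count, these levels check neither the label nor the recombination.

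Most other genes of endocannabinoid handling differed little between the libraries. Of the 15 listed, 14 were measured in the excitatory pool and none was past 1.5-fold, where 0.535% of all 12907 genes were called higher and 3.08% lower. The median of the list was 0.02, beside -0.02 over all genes. Among the enzymes that make 2-arachidonoylglycerol, Dagla, the main neuronal diacylglycerol lipase, was at 81.2 CPM in wild type, 97.6 in the neuron knockout, 100 in the astrocyte knockout and 84.6 in the total knockout, a log2 ratio of 0.27 (0.20 to 0.33). Daglb, its relative, had a log2 ratio of 0.13 (0.03 to 0.24). Of the other enzymes that split the lipid, Abhd6 had a log2 ratio of -0.01 (-0.07 to 0.05) and Abhd12 one of -0.10 (-0.16 to -0.05). Faah, which breaks down anandamide, had one of 0.21 (0.15 to 0.27). Cnr1, which encodes CB1, was at 57.8, 59.3, 70.3 and 66.8 CPM in the excitatory pools. It was more abundant in the inhibitory pools, at 365 CPM in wild type, 383 in the neuron knockout, 318 in the astrocyte knockout and 315 in the total knockout, a log2 ratio of 0.07 (0.01 to 0.13). This pooled ratio did not hold within groups of interneurons. In CCK-marker nuclei, which had the most and which Cnr1 helped to define, Cnr1 was at 1890 CPM in wild type and 1451 in the neuron knockout, a log2 ratio of -0.38. It was -0.61 in Sst-marker, -0.45 in Lamp5-marker, -0.08 in Vip-marker, 0.18 in Pvalb-marker and 0.79 in unassigned nuclei, while CCK-marker nuclei were 11.3% of the wild-type and 15.5% of the neuron-knockout pool. Napepld, which makes the other endocannabinoid anandamide and its relatives, was the lowest member in both pools, with log2 ratios of -0.39 (-0.50 to -0.28) and -0.42 (-0.72 to -0.11). Naaa, an amidase of such lipids, was the highest, with 0.58 (0.26 to 0.89) in the excitatory pool. In the inhibitory pool it was the 1 member past 1.5-fold out of 13 measured, at 6.61 CPM in wild type, 10.1 in the neuron knockout, 8.84 in the astrocyte knockout and 8.72 in the total knockout, where 0.963% of 9762 genes were called higher and 3.51% lower. Its ratio was inside 1.5-fold in female nuclei, with a stricter gate and as a mean over nuclei.

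Over all genes the excitatory pool had 69 genes higher and 397 lower in the neuron knockout, and the inhibitory pool had 94 higher and 343 lower. The median log2 ratio was -0.02 in both pools, and the 10th and 90th percentiles were -0.35 and 0.21 in excitatory and -0.36 and 0.24 in inhibitory neurons. Past 2-fold there were 9 genes higher and 53 lower in the excitatory pool and 20 and 48 in the inhibitory pool. Of the 9614 genes measured in both pools, 9 were higher in both, 130 were lower in both and 0 were called in opposite directions. All 69 genes called higher in excitatory neurons had ratios above 0 in female and in male nuclei taken alone, and 28 of them were past 1.5-fold in each. Of the 379 called lower outside the sex, mitochondrial and glial lists, 375 had ratios below 0 in both sexes and 127 were past 1.5-fold in each. Female and male nuclei make up most of the pool on which the genes were called. Their shared direction is thus largely set by the call, and these counts are a description only.

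**Figure D1:**
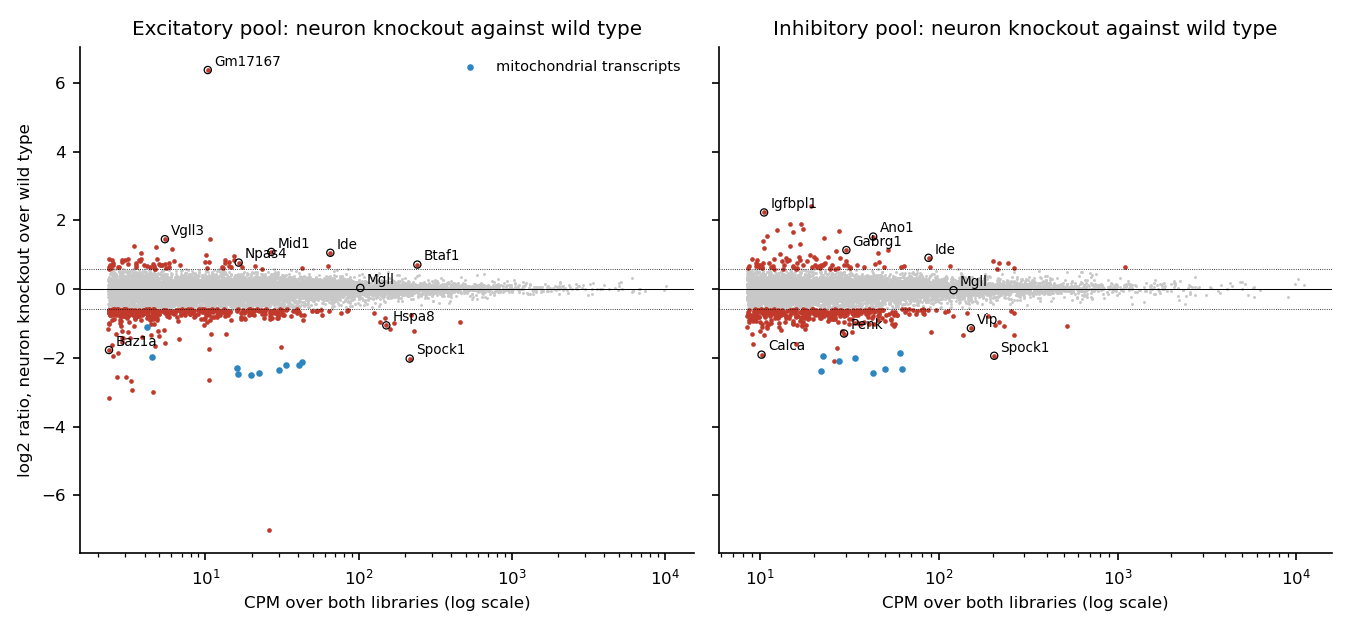
Log2 ratio of neuron knockout over wild type (vertical axis) against the CPM over both libraries (horizontal axis, log scale) for genes with at least 200 UMIs, 1 point per gene, left for the excitatory and right for the inhibitory pool. Red points lie past the dotted lines at 1.5-fold, blue points are mitochondrial transcripts and circled genes are named. Spock1 is at -2.02 and -1.94, and Mgll is at 0.03 and -0.03.

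The gene that set the neuron-knockout library apart was Spock1, which encodes testican-1, a secreted proteoglycan of the brain's extracellular matrix (chr13:57421195-57908332, minus strand, mm10). In excitatory nuclei it stood at 319 CPM (314 to 324) in wild type, 377 (372 to 383) in the astrocyte knockout, 342 (338 to 346) in the total knockout and 78.6 (75.7 to 81.4) in the neuron knockout. In inhibitory nuclei it stood at 349, 353, 344 and 90.7 CPM in that order. The other three libraries lay close together and the neuron knockout lay far below all of them, with log2 ratios to wild type of -2.02 (-2.08 to -1.97) and -1.94 (-2.04 to -1.85). Among excitatory genes only the choroid transcript Ttr had a larger gap below all 3 other libraries, and among inhibitory genes none had.

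In neurons the loss was uneven between nuclei of the 2 sexes. In female excitatory nuclei Spock1 went from 338 CPM (330 to 345) in wild type to 15.7 (13.8 to 17.9) in the neuron knockout, a log2 ratio of -4.42 (-4.62 to -4.24). In male excitatory nuclei it went from 314 CPM (306 to 322) to 134 (128 to 139), a log2 ratio of -1.23 (-1.30 to -1.16). Inhibitory nuclei showed the same, with 349 to 10.0 CPM in females and 354 to 160 CPM in males. Wild-type females and males differed little, by a log2 ratio of -0.11 (-0.15 to -0.06) for males over females in excitatory nuclei, whereas males of the neuron knockout were 3.08 (2.90 to 3.29) above its females. How many animals each sex stands for is not in the labels. Sex was read from Xist and Y-linked UMIs, and whether the knockout acts differently in the sexes was not tested.

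The count per nucleus showed how the remaining RNA was spread. Of wild-type excitatory nuclei, 45.9% had no Spock1 UMI and 12.8% had 10 or more. Of neuron-knockout males 66.8% had none and 3.33% (54 nuclei) had 10 or more, while of its females 89.1% had none and 0 of 1379 nuclei had 10 or more, the highest class being 3 to 9 UMIs with 1.16%. With each nucleus thinned to 2000 UMIs, leaving out 14 wild-type nuclei and 7 male and 12 female neuron-knockout nuclei, the share with a Spock1 UMI was 32.1% (30.6 to 33.5) in wild type, 15.2% (13.4 to 17.0) in neuron-knockout males and 3.29% (2.41 to 4.38) in its females, against 54.1%, 33.2% and 10.9% before thinning. The median depths of these 3 groups were 11002, 10184 and 9874 UMIs. As a reference, wild-type nuclei rich in astrocyte markers gave 1.75% (0.04 to 9.39) at the thinned depth and 1.67% before thinning, at a median of 2884.5 UMIs. The reference is too small to set a background, since 1 of its 60 nuclei held all 6 UMIs, and astrocyte-marker nuclei ranged from 0 of 23 with a UMI in the neuron knockout to 7 of 28 in the total knockout before thinning.

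Spock1 was low in all neuron subpools and in oligodendrocyte-marker nuclei. Nuclei were split by marker scores into subpools, a description and not a naming of cell types. In wild type the CA2/CA3-marker nuclei had the most Spock1, at 821 CPM against 205 in the neuron knockout. Subicular or cortical-marker nuclei had 344 and 76.8 CPM, CA1-marker nuclei 97.9 and 21.1, and granule-marker nuclei 31.2 and 8.31. The log2 ratios of these 4 subpools ran from -2.21 to -1.88, although their wild-type levels spanned a wide range. Among inhibitory subpools the ratios ran from -2.58 in Vip-marker to -1.50 in CCK-marker nuclei. Barcodes in neither pool, which include many neurons, with Camk2a at 618 and 723 CPM, went from 178 to 47.9 CPM. Nuclei with at least 20 UMIs of oligodendrocyte markers and none of Slc17a7, Gad1 or Gad2 had 376 CPM (340 to 416) in wild type, 23.3 (7.55 to 54.3, 5 UMIs in 66 nuclei) in the neuron knockout, 223 (159 to 305) in the astrocyte knockout and 315 (297 to 334) in the total knockout. In the neuron knockout, 25 of these nuclei were female, with 1 Spock1 UMI, and 22 were male, with 0 (0 to 45.9 CPM). In wild type the males had 332 CPM (278 to 394). The higher level of male than female neurons was thus not seen here, on few UMIs. By level over all such nuclei the neuron knockout was the lowest of the 4 libraries. By share of these nuclei with a Spock1 UMI it was close to the astrocyte knockout, with 5 of 66 (7.58%, 2.51 to 16.8) against 5 of 50 (10.0%, 3.33 to 21.8), and both were below wild type at 44.9% and the total knockout at 36.9%, at median depths of 1958.5, 1932, 2089 and 1441.5 UMIs.

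The genes next to Spock1 did not share its drop. Within 1 Mb, 14 other genes were measured in excitatory nuclei with log2 ratios from -0.39 to 0.54. In inhibitory nuclei 10 were measured, with ratios from -0.41 to 0.32. None was past 1.5-fold, where 3.08% and 3.51% of all genes were called lower, so 0 calls in windows of this size is near those shares. Klhl3, the nearest on 1 side, had 149 CPM in wild type and 165 in the neuron knockout, and Ntrk2, the receptor of brain-derived neurotrophic factor, had 574 and 521 CPM in excitatory nuclei. Mgll lies on another chromosome, and the cause of the Spock1 difference was not tested.

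**Figure D2:**
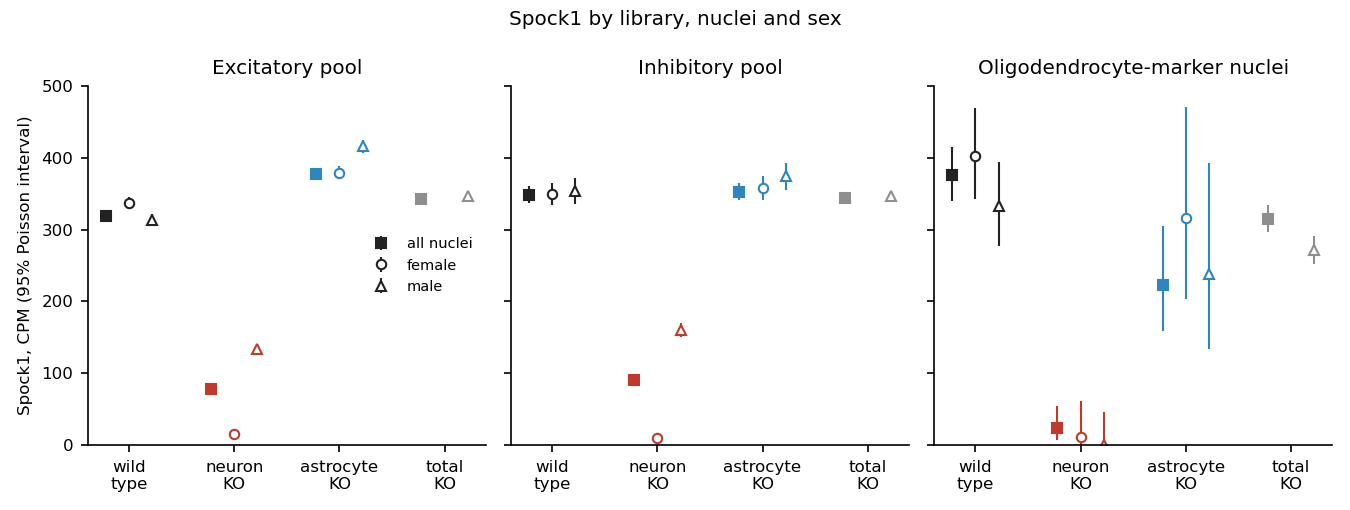
Spock1 level in CPM (vertical axis from 0) by library (horizontal axis) for the excitatory pool, the inhibitory pool and oligodendrocyte-marker nuclei. Filled squares are all nuclei, open circles female and open triangles male nuclei, bars are 95% Poisson intervals, and females are not drawn for the total knockout, which had almost none. The neuron-knockout library lies below the other libraries in all panels, with its female neurons at 15.7 and 10.0 CPM and its male neurons at 134 and 160 CPM.

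Genes switched on by neuronal activity, the immediate early genes, stood mostly above wild type in excitatory neurons of the neuron knockout. Of 19 measured, 4 were past 1.5-fold higher (Fosb, Egr4, Npas4 and Nr4a3), 1 was lower (Jun), and the median was 0.27 against -0.02 for all genes, of which 0.535% were called higher and 3.08% lower. Npas4, a transcription factor induced by calcium entry, was at 12.6 CPM in wild type, 21.6 in the neuron knockout, 8.59 in the astrocyte knockout and 16.8 in the total knockout, a log2 ratio of 0.77 (0.62 to 0.92). Egr4, a zinc-finger factor of the Egr family, was at 7.96, 13.8, 3.72 and 6.98 CPM, a log2 ratio of 0.80 (0.61 to 0.99). Fosb, a partner of Jun in the AP-1 factor, was at 2.12, 3.85, 0.94 and 1.62 CPM, a log2 ratio of 0.86 (0.49 to 1.24). The neuron knockout was the highest of the 4 libraries for these 3 genes, and the astrocyte knockout the lowest. The list's median over wild type was -0.75 in the astrocyte and -0.18 in the total knockout. The astrocyte knockout thus differed from wild type by more than the neuron knockout, in the other direction. With nuclei thinned to 2000 UMIs, Fosb came inside 1.5-fold. Nr4a3, an orphan nuclear receptor, was at 50.4, 80.3, 42.8 and 65.5 CPM, a log2 ratio of 0.67 (0.60 to 0.75). Jun, which forms AP-1 with Fos proteins, was at 17.1 CPM in wild type and 10.9 in the neuron knockout, a log2 ratio of -0.65 (-0.83 to -0.48). Other classic members stayed inside 1.5-fold, with log2 ratios of 0.28 for Fos, 0.19 for Egr1, 0.25 for Arc and 0.03 for Junb. The list's median was 0.40 in granule-marker, 0.52 in CA2/CA3-marker and 0.26 in subicular or cortical-marker nuclei. In CA1-marker nuclei it was -0.02, so the list was not higher in all subpools.

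The difference lay mainly in female nuclei. In females the list's median was 0.46, with 7 genes past 1.5-fold higher, and in males it was 0.08 with 0 past it in either direction. Over the same 12907 genes, 1.32% were past 1.5-fold higher in female and 1.44% in male nuclei. Npas4 went from 11.9 to 27.7 CPM in females, a log2 ratio of 1.22 (1.00 to 1.44), and from 13.2 to 16.1 CPM in males, a log2 ratio of 0.29 (0.05 to 0.54). Egr3, a further Egr factor, went from 15.8 to 29.7 CPM in females and from 20.6 to 23.7 in males. Nr4a2, a relative of Nr4a3, was an exception, with log2 ratios of 0.51 in females and 0.58 in males. Bdnf, a growth factor gene that activity also induces, went from 59.5 to 80.4 CPM in females and from 61.1 to 61.8 in males. In inhibitory neurons 7 of the 20 genes had enough UMIs, and Npas4 at 6.70 CPM in wild type and 11.5 in the neuron knockout, and Nr4a3 at 16.7 and 25.4, were past 1.5-fold, where 0.963% of all genes were called higher. Both came inside it in male and in thinned nuclei, and Nr4a3 also as a mean over nuclei and with Scrublet doublet calls removed. The labels give neither handling before death nor the number of animals behind each sex. The difference between the sexes was not tested.

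The bases before the start of the 4 genes that were past 1.5-fold higher in excitatory neurons are shown because CREB, a factor activated by calcium and cyclic AMP, is known to bind the cyclic-AMP response element in promoters of this class. Sequences are the 250 bases before the start given by RefSeq annotation of GRCm38.p6, 5′ to 3′ on the gene's strand. Capitals mark TGACG or its reverse complement CGTCA, which form the ends of the full element TGACGTCA and overlap within it. The GENCODE M21 annotation places the start of Npas4 at 4990316, that of Nr4a3 at 48045153 and that of Fosb at 19310051. By that annotation all of the Npas4 window, part of the Nr4a3 window and the last few bases of the Fosb window lie inside the genes.
Npas4, chr19:4989972-4990221, minus strand: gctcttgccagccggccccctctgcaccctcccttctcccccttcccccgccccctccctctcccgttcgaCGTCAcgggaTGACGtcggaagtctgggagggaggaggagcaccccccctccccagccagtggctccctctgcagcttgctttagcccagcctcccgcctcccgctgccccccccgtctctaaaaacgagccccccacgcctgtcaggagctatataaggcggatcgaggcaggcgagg
Nr4a3, chr4:48045055-48045304, plus strand: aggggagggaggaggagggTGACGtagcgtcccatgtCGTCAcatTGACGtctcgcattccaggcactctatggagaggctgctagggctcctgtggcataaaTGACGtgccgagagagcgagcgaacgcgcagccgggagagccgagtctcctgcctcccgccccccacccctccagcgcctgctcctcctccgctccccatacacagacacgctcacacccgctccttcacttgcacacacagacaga
Egr4, chr6:85513590-85513839, minus strand: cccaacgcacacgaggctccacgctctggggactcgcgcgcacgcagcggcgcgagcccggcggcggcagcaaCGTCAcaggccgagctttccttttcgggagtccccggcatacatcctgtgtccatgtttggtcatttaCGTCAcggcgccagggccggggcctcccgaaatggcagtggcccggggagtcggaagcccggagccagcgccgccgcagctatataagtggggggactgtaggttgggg
Fosb, chr7:19310046-19310295, minus strand: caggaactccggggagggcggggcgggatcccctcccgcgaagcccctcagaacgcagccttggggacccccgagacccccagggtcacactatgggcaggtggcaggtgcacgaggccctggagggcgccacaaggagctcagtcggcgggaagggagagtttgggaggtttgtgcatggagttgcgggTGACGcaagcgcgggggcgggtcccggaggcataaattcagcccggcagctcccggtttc
All 4 windows held at least 1 of the short motifs, with 2 in Npas4, 4 in Nr4a3, 2 in Egr4 and 1 in Fosb, and 0 held the full element. Of the 32851 promoter windows of the same length in that table, 17.8% held a short motif on either strand and 1.55% the full element. Of the 14 measured immediate early genes with an entry in the table, changed or not, 12 held a short motif, so the motif does not separate the 4 genes from the rest of the list. A match describes letters and is not evidence of binding.

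**Figure D3:**
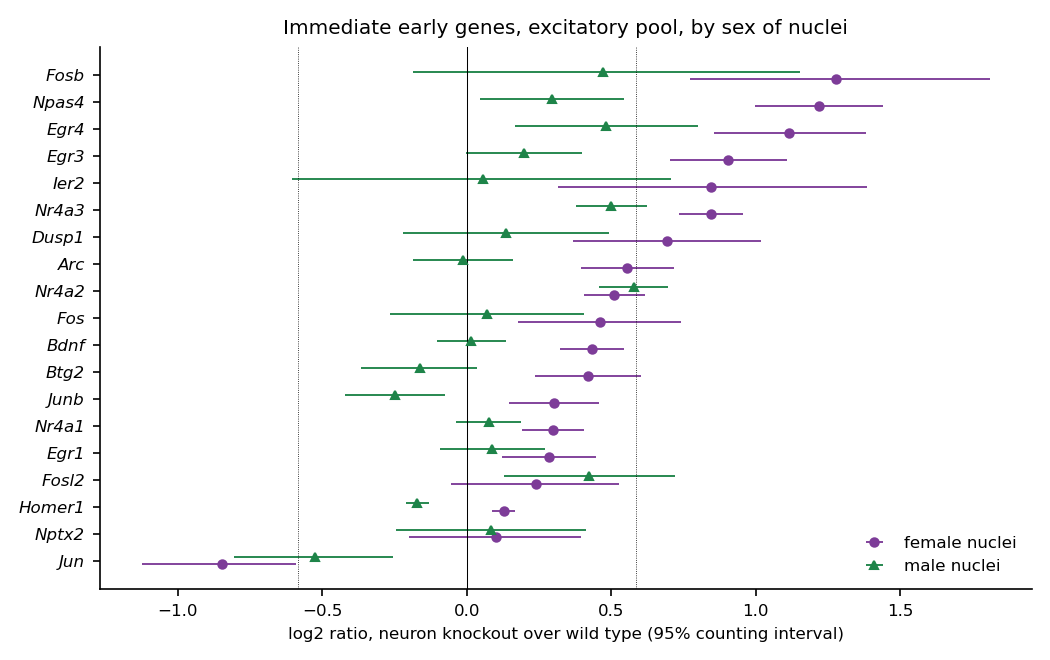
Log2 ratio of neuron knockout over wild type (horizontal axis) for the 19 immediate early genes measured in the excitatory pool, separately for female nuclei (purple circles) and male nuclei (green triangles), with 95% counting intervals and dotted lines at 1.5-fold. Female values lie to the right of male values for most genes, as for Npas4 at 1.22 against 0.29, and Jun lies at the left in both.

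Genes higher in both pools were few. Ide, which encodes the insulin-degrading enzyme (chr19:37268743-37337852), was at 44.6 CPM in wild type, 92.8 in the neuron knockout, 76.0 in the astrocyte knockout and 94.9 in the total knockout in excitatory nuclei, a log2 ratio of 1.06 (0.98 to 1.14). In inhibitory nuclei it was at 58.5, 110, 89.4 and 107 CPM. All 3 knockout libraries were above wild type. Btaf1, a regulator of the TATA-binding protein on the same chromosome (chr19:36926079-37012752), followed with 190, 311, 241 and 274 CPM in excitatory nuclei. Fgfbp3, beside Btaf1, had log2 ratios of 0.44 in excitatory and, on too few UMIs for a call, 0.93 in inhibitory nuclei. Cpeb3 and March5, which lie between Btaf1 and Ide, had log2 ratios of 0.04 and -0.24 in excitatory nuclei.

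Other genes higher in both pools included Mid1, an E3 ubiquitin ligase on the X chromosome, at 18.2, 38.5, 22.4 and 26.4 CPM in wild type, neuron, astrocyte and total knockout excitatory nuclei, a log2 ratio of 1.08 (0.96 to 1.20). Lrrc45, a centrosome linker protein gene, was at 10.9, 21.1, 19.6 and 19.9 CPM, so that the 3 knockout libraries lay together above wild type. Leng9 behaved otherwise. It was at 7.14 CPM in wild type, 14.1 in the neuron knockout, 8.48 in the astrocyte knockout and 5.90 in the total knockout in excitatory nuclei, and at 8.14, 16.5, 9.33 and 5.51 CPM in inhibitory nuclei, so that the neuron knockout alone was high. The largest ratio among all genes measured in excitatory nuclei belonged to the processed transcript Gm17167 on chromosome 4, with 13 UMIs (0.27 CPM) in wild type, 879 (23.7 CPM) in the neuron knockout, 0.11 CPM in the astrocyte knockout and 61.4 in the total knockout. It was near 0 in wild type and the astrocyte knockout and high in the neuron and total knockouts. The log2 ratio was 6.38 (5.70 to 7.40), with 6.80 in female and 6.06 in male nuclei. Of the 25 other genes measured within 1 Mb of it, 2 were past 1.5-fold, Fancg and Fam214b, with log2 ratios of 0.89 and 0.63. Over all genes 0.535% were called higher, and Fancg came inside 1.5-fold with nuclei thinned to 2000 UMIs. In inhibitory nuclei 17 genes were measured in that window, with 0 called higher and 1 lower. The shares over all genes there were 0.963% and 3.51%.

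Vgll3, a cofactor of TEAD transcription factors, and Ccn1, a matricellular protein gene that these factors induce, were among the highest excitatory genes at low levels. Vgll3 was at 3.10 CPM in wild type, 8.51 in the neuron knockout, 4.44 in the astrocyte knockout and 5.05 in the total knockout. Ccn1 was at 2.98, 7.03, 0.17 and 3.92 CPM, with log2 ratios of 2.35 in female and 0.12 in male nuclei. The log2 ratio of Vgll3 was 1.45 over the pool, 1.09 in CA2/CA3-marker nuclei (78 and 153 UMIs) and 1.86 in the nuclei left unassigned (60 and 154 UMIs), with at most 7 UMIs per library in each of the other subpools. That of Ide ran from 0.91 to 1.20 over all subpools and unassigned nuclei.

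Genes of respiration, translation and protein folding were among those lower in the neuron knockout. Of 50 nuclear genes of oxidative phosphorylation, the machinery of mitochondrial respiration, 20 were called lower and 0 higher in excitatory nuclei, with a median of -0.48. Of 66 ribosomal protein genes 26 were lower and 0 higher, with a median of -0.55, and of 10 heat shock genes measured 3 were lower, with a median of -0.49. In inhibitory nuclei the counts were 25 of 50, 38 of 65 and 5 of 9, with medians of -0.58, -0.61 and -0.60. The backgrounds were the 3.08% and 3.51% called lower over all genes. Atp5j, a subunit of ATP synthase, was at 56.5 CPM in wild type, 28.1 in the neuron knockout, 37.0 in the astrocyte knockout and 35.8 in the total knockout in inhibitory nuclei. Rps3, a protein of the small ribosomal subunit, was at 32.1, 18.6, 20.2 and 22.1 CPM in excitatory nuclei. Hspa8, the constitutive Hsp70 chaperone, was there at 195, 94.0, 93.3 and 115 CPM, a log2 ratio of -1.06 (-1.112 to -0.9997), and Hsp90ab1, a constitutive Hsp90, at 218, 110, 121 and 144 CPM. For these genes wild type was the highest library and all 3 knockout libraries lay below it. In excitatory nuclei the medians of the oxidative phosphorylation list over wild type were -0.33 in the astrocyte and -0.28 in the total knockout. Those of the ribosomal list were -0.43 and -0.23, and those of the heat shock list -0.48 and -0.22. The heat shock median of the astrocyte knockout was thus close to that of the neuron knockout.

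Short genes and mitochondrial transcripts were lower as well, and their part in these counts was not tested. Protein-coding genes shorter than 10 kb had a median log2 ratio of -0.15 in excitatory nuclei, with 9.24% of 2133 called lower, whereas genes of 10 to 100 kb had a median of -0.01 with 0.983% called lower. In inhibitory nuclei 15.8% of 1250 short genes were called lower, against 1.15% of 5897 genes of 10 to 100 kb. The other knockout libraries, set against the same wild type, had like medians for genes under 10 kb, with -0.13 in the astrocyte and -0.17 in the total knockout in excitatory nuclei and -0.19 and -0.26 in inhibitory nuclei, beside -0.21 in the neuron knockout. The median span of called genes was 5.34 kb for the 292 protein-coding genes lower in excitatory nuclei, 14.8 kb for the 56 higher and 30.3 kb for all 11360. All 10 mitochondrial transcripts measured in excitatory nuclei were called lower, by a summed 4.72-fold over the 13 listed, while the total knockout had nearly the wild-type sum. Female nuclei again differed more, with 28 oxidative phosphorylation genes lower and a median of -0.67, against 3 and -0.31 in males. All genes went the same way, with 5.50% past 1.5-fold lower in female and 2.88% in male nuclei, and the median of genes under 10 kb was -0.21 in females and -0.08 in males.

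**Figure D4:**
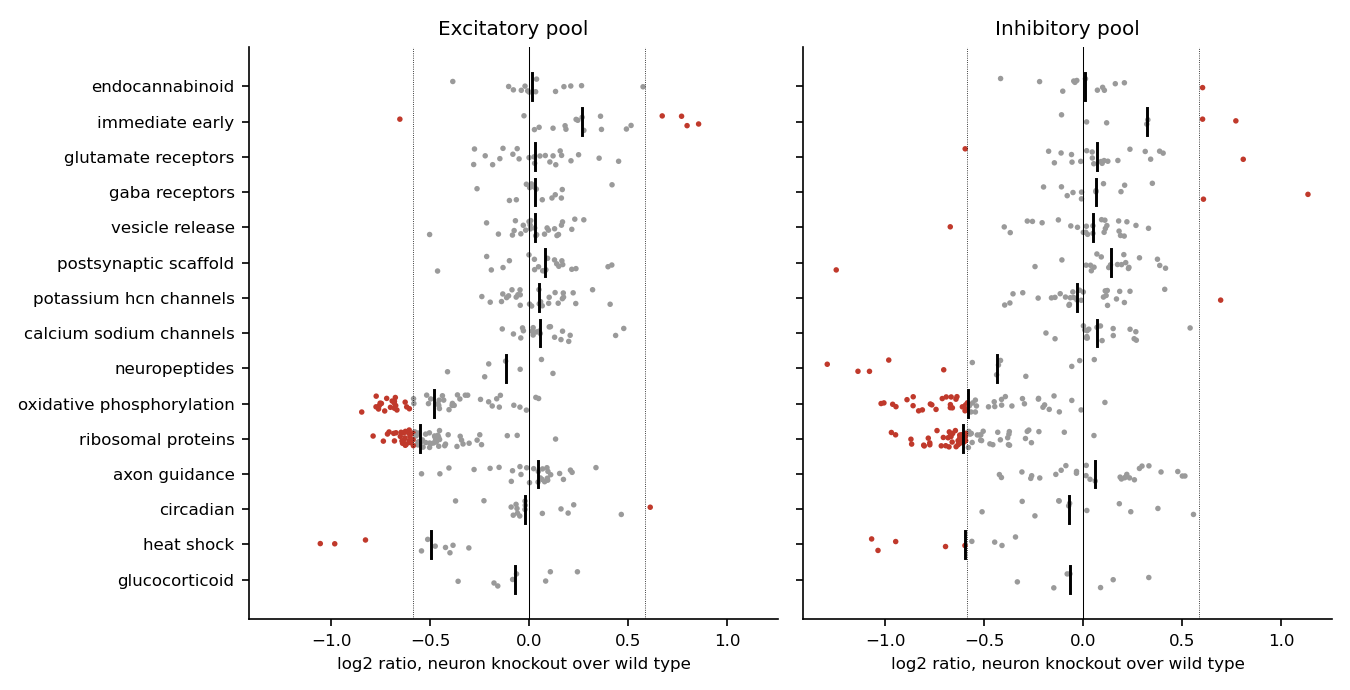
Log2 ratio of neuron knockout over wild type (horizontal axis) for the measured members of 15 gene lists (vertical axis), left for excitatory and right for inhibitory nuclei. Each point is a gene, black bars are list medians, dotted lines mark 1.5-fold and red points lie past them. Oxidative phosphorylation, ribosomal protein and heat shock genes lie at the left in both pools, with medians from -0.61 to -0.48.

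Listed genes of the synapse and of excitability stayed inside 1.5-fold in excitatory neurons. None of 23 glutamate receptor, 14 GABA receptor, 27 vesicle release, 22 postsynaptic scaffold, 30 potassium and HCN channel, 20 calcium and sodium channel, 29 axon guidance, 7 neuropeptide or 8 glucocorticoid response genes measured was past 1.5-fold, and the medians ran from -0.12 to 0.08. Over all 12907 genes 0.535% were called higher and 3.08% lower, and at those shares few calls would fall in lists of this size. The highest member of these lists was Cacna1h, a T-type calcium channel, with a log2 ratio of 0.48 (0.36 to 0.59). The lowest was Sema3c, a guidance cue, with -0.54 (-0.82 to -0.28). Grik5, a kainate receptor subunit, was at 90.6 CPM in wild type and 124 in the neuron knockout, and Rab3a, a vesicle GTPase, at 44.7 and 31.5. Gabra2, a GABA-A receptor subunit, was at 517, 691, 752 and 744 CPM in wild type, neuron, astrocyte and total knockout, so that the 3 knockout libraries lay together above wild type. Ciart, a circadian repressor, was the 1 clock gene of 17 past 1.5-fold, at 3.73, 5.71, 4.42 and 5.95 CPM, and its log2 ratio was -0.04 with nuclei thinned to 2000 UMIs and 0.49 in male nuclei, and the call was also lost with a stricter gate.

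Among the lowest excitatory genes beside Spock1, several were low in all 3 knockout libraries. Baz1a, a chromatin-remodelling subunit, was at 3.39 CPM in wild type, 0.97 in the neuron knockout, 1.05 in the astrocyte knockout and 0.99 in the total knockout. Cd59a, an inhibitor of complement, was at 4.45, 1.64, 1.38 and 1.39 CPM. Gm47283, placed on chromosome Y by the annotation, was at 213, 94.1, 44.2 and 128 CPM with log2 ratios of -1.14 in female and -1.14 in male nuclei. Its level was higher in female nuclei, at 258 CPM in wild type and 117 in the neuron knockout, than in male ones, at 164 and 74.7. Its UMIs thus did not mark male nuclei. Hmcn1, a matrix protein gene, was low in the neuron knockout alone, at 4.14, 1.72, 3.54 and 3.90 CPM, with log2 ratios of -1.80 in female and 0.09 in male nuclei. Its sexes differed in wild type, at 5.55 CPM in females and 2.03 in males, and were close in the neuron knockout, at 1.54 and 2.15.

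Inhibitory neurons of the neuron knockout had more RNA of a set of genes that were at low levels in wild-type interneurons. Igfbpl1 was at 3.35 CPM in wild type, 16.1 in the neuron knockout, 12.5 in the astrocyte knockout and 9.87 in the total knockout, a log2 ratio of 2.23 (1.74 to 2.82). Zic4 and Zic1, neighbouring zinc-finger factors of forebrain development, had log2 ratios of 1.90 (1.52 to 2.35) and 1.65 (1.29 to 2.06). In females Zic4 was at 2.35 CPM in wild type and 21.8 in the neuron knockout, and in males, where wild type was higher, at 10.5 and 18.1. The log2 ratios were 3.12 and 0.77, and those of Zic1 2.47 and 1.09. Prdm16, a zinc-finger factor, came inside 1.5-fold in males, at 0.56 against 2.45 in females. Ano1 and Ano2, calcium-activated chloride channels, had log2 ratios of 1.53 (1.31 to 1.76) and 1.90 (1.54 to 2.32). Gabrg1, a GABA-A receptor subunit, was at 18.1, 39.9, 49.2 and 42.0 CPM in wild type, neuron, astrocyte and total knockout. All 12 of the highest protein-coding genes were above wild type in each of the 3 knockout libraries. They were chosen for a low wild-type level relative to the neuron knockout, and all 3 comparisons share the wild-type library, so this count is a description only.

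The UMIs of these genes were spread over several subpools. The largest gaps were in the Lamp5-marker nuclei. In the Lamp5-marker subpool of 141 wild-type nuclei Ano1 had 4 UMIs (3.05 CPM), Cpa6, a carboxypeptidase gene, 4 (3.05 CPM) and Gabrg1 1 (0.76 CPM). In the 243 neuron-knockout nuclei of that subpool they had 249 UMIs (116 CPM), 262 (122 CPM) and 86 (40.2 CPM). Met, a receptor tyrosine kinase gene, differed less there, at 35.1 and 55.6 CPM. Gabrg1 was also higher in Sst-marker nuclei, at 11.2 and 42.5 CPM, and in Pvalb-marker nuclei, at 1.48 and 10.7 CPM. Not all of the genes were higher outside the Lamp5-marker subpool. In Sst-marker nuclei Ano1 was at 11.6 and 11.4 CPM and Prdm16 at 7.45 and 3.59. In CCK-marker nuclei Prdm16 was higher, at 5.59 and 43.9 CPM, as was Ano1, at 33.5 and 62.7. There Gabrg1 was at 35.1 and 35.9 CPM and Cpa6 at 29.6 and 27.2. Of the markers that set the subpool, Lamp5 was at 267 and 237 CPM and Sv2c at 268 and 246, while Ndnf was at 477 and 250, and whether the subpool holds the same nuclei in both libraries was not tested. Nuclei with UMIs of at least 4 of the 12 genes made up 2.54% of wild-type inhibitory nuclei (25 of 984, 1.65 to 3.73), 9.61% of the neuron knockout (125 of 1301, 8.06 to 11.3), 13.2% of the astrocyte knockout and 6.81% of the total knockout. Of the 125 nuclei of the neuron knockout, 54 were unassigned, 41 were Lamp5-marker and 26 CCK-marker nuclei. Excitatory nuclei gave 0.0736% in wild type and 0.0593% in the neuron knockout. Their gate leaves out nuclei with any Gad1 or Gad2 UMI, so these shares cannot set a level of free RNA. With nuclei thinned to 2000 UMIs the shares with at least 2 of the genes were 2.35% (1.497 to 3.51), 8.71% (7.23 to 10.4), 12.7% and 7.28%, where 6 wild-type and 3 neuron-knockout nuclei were too shallow. By this measure excitatory nuclei gave 0.345% in wild type, 0.359% in the neuron knockout, 0.329% in the astrocyte knockout and 0.624% in the total knockout. The 12 genes were taken from this same contrast, so the shares describe where their UMIs lay and support nothing further. More nuclei of 1 kind and more RNA per nucleus cannot be told apart in the pool sums.

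Neuropeptide genes stood lower. Of 13 measured, 5 were past 1.5-fold lower and 0 higher, with a median of -0.44 beside -0.02 for all genes, of which 3.51% were called lower and 0.963% higher. Vip, the vasoactive intestinal peptide, was at 218 CPM in wild type, 98.8 in the neuron knockout, 48.2 in the astrocyte knockout and 92.7 in the total knockout. Tac2, a neurokinin precursor, was at 79.8, 37.7, 14.5 and 26.6 CPM, Crh, corticotropin-releasing hormone, at 21.1, 10.6, 6.99 and 8.68 CPM, and Npy at 336, 206, 223 and 149 CPM. In these 4 genes wild type was the highest library. Penk, which encodes the enkephalins, was at 44.1, 18.0, 10.9 and 67.4 CPM, with the total knockout above wild type. The shares of the marker-scored subpools moved with them. Vip-marker nuclei were 10.6% of the wild-type inhibitory pool (8.72 to 12.7) and 4.92% of the neuron knockout (3.81 to 6.24), while Lamp5-marker nuclei were 14.3% and 18.7% and CCK-marker nuclei 11.3% and 15.5%. Within the Vip-marker subpool, which Vip helped to define, Vip had 2205 and 1600 CPM, a log2 ratio of -0.46 against -1.14 in the whole pool. With the same subpool weights in both libraries the ratios of Vip and Crh came inside 1.5-fold. Both genes are among the markers that set the Vip-marker subpool, so less of their RNA also lowers its share. For these genes the share and the reweighting thus cannot tell a change of mix from a change of RNA per nucleus. Calca, which encodes calcitonin gene-related peptide and was among the 12 lowest genes, was at 17.3, 4.57, 10.0 and 4.84 CPM. Its highest subpool level was in CCK-marker nuclei, at 81.5 CPM in wild type and 10.03 in the neuron knockout.

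**Figure D5:**
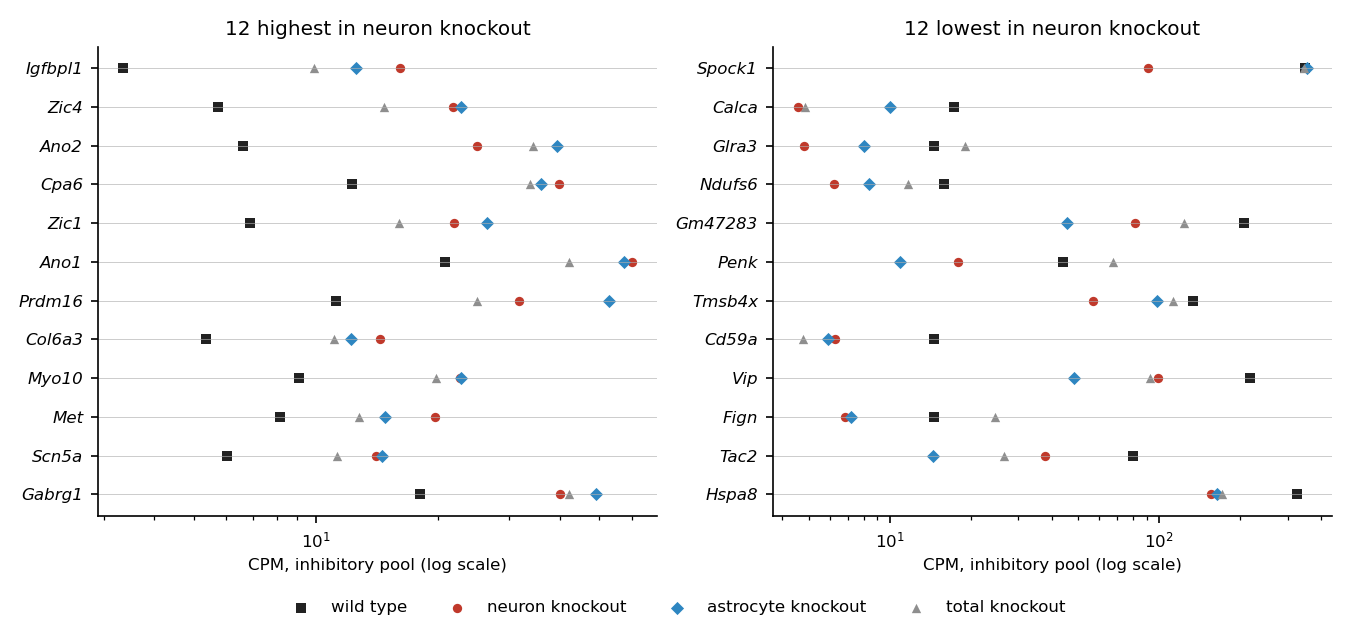
CPM in the inhibitory pool (horizontal axis, log scale) of the 12 protein-coding genes with the highest and the 12 with the lowest ratio of neuron knockout over wild type, 1 point per library. In the left panel wild type (black squares) is the lowest library for all 12 genes. In the right panel Spock1 has the neuron knockout (red circle) at 90.7 CPM and the other libraries between 344 and 353.

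A few receptor and channel genes were called in inhibitory neurons. At most 2 members of a list passed, against 0.963% of all genes called higher and 3.51% lower. Of 22 glutamate receptor genes, Grm4 was higher at 9.86 CPM in wild type and 17.4 in the neuron knockout, and Grm3 lower at 56.4 and 37.3, a call that was lost in female nuclei, with median-centred ratios and with Scrublet doublet calls removed. Of 14 GABA receptor genes, Gabra2 and Gabrg1 were higher, the former at 204 and 310 CPM and inside 1.5-fold with equal subpool weights, a stricter gate, thinned nuclei or male nuclei. Of 29 potassium and HCN channel genes Kcnn3 was higher at 25.9 and 42.1 CPM, with log2 ratios of 0.93 in female and 0.22 in male nuclei. In the astrocyte and total knockout Kcnn3 was at 44.1 and 49.2 CPM and Gabra2 at 349 and 409, also above wild type. Grm4 was there at 13.4 and 17.8 CPM and Grm3 at 36.9 and 133. Nrgn, a calmodulin-binding protein of excitatory neurons, was at 48.6 CPM in wild type, 20.4 in the neuron knockout, 51.7 in the astrocyte knockout and 89.2 in the total knockout in inhibitory nuclei, about 0.12 times its level in barcodes of neither pool.

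Counted against all 3 other libraries at once, few genes were particular in level to the neuron-knockout library. In excitatory nuclei 8 of 13200 genes (0.0606%) were at least 1.5-fold above all 3 others and 27 (0.205%) below them. In inhibitory nuclei 2 of 10342 (0.0193%) were above and 33 (0.319%) below. In excitatory nuclei the same count was 28 above and 13 below for wild type, 11 and 162 for the astrocyte knockout and 65 and 136 for the total knockout. In inhibitory nuclei it was 51 and 57, 6 and 38, and 157 and 67, so that the neuron knockout had fewer such genes in all than any other library. Of the 27 low excitatory genes, 9 were mitochondrial transcripts and others were genes of glia or choroid plexus such as Ttr, Mag, Gjc3 and Apoe, with pool levels of about 0.03 to 0.12 times those in barcodes of neither pool. Spock1 was the 1 gene low in both pools that was neither mitochondrial nor less than 0.5 times as abundant in the pool as in barcodes of neither pool, and Leng9 the 1 gene high in both.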

How the data were processed

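Nuclear RNA of hippocampus was counted in 4 libraries, 1 per genotype. The authors deposited whole-number UMI counts per gene symbol and barcode, not normalized. Cell Ranger ARC 2.0.0 and mm10 are named in the submitters' processing notes. The sources used here name no annotation and no use of strand, so overlapping or antisense genes may share reads. Symbols were placed with GENCODE M21 (98.1% of 20483 genes in both files).

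Counts were summed per pool (numpy 2.4.6, pandas 2.3.3, scipy 1.17.1) and compared as described in the report. No barcode was removed as a doublet except in an alternative (Scrublet in scanpy 1.11.5, expected 0.8% per 1000 barcodes, which called 3.77% of wild-type and 2.14% of neuron-knockout barcodes). The ratio script was tested on simulated counts. Totals per pool, 10445636 to 49017886 UMIs, set the precision.

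Named genes were, per pool, the 12 highest and 12 lowest protein-coding ratios and 3 each of other genes, among genes at least 0.5 times as abundant in the pool as in barcodes of neither pool, without sex, mitochondrial, gate and glial marker genes, the endocannabinoid list, and of each other list up to 4 members past 1.5-fold or its extremes. Other genes, subpool scores (a lead of at least 0.3), the glial gates and the tally of 12 inhibitory genes were chosen after values were seen. Members and lists were chosen with earlier results of these data known.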

Additional observations from a re-analysis of the deposited data

How the results depend on the processing

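With 1 library per genotype, a difference between genotypes and one between animals, dissections or preparations cannot be told apart. Of 44 recomputed counts of called genes, 31 stayed within 1.5 times the first count. Excitatory genes called higher, 69 at first, were 132 with a minimum of 100 UMIs, 27 with 500 and 115 as means over nuclei. Those called lower, 397 at first, were 212 with 500, 158 with nuclei thinned to 2000 UMIs and 153 in male nuclei. Inhibitory genes called higher, 94 at first, were 166 with 100, 42 with 500, 32 thinned and 62 in males. Those called lower, 343 at first, were 175 with 500, 87 thinned and 118 in males. The minimum, thinning and the restriction to male nuclei change how many genes reach the minimum. Over the 12907 genes tested at first, 372 were lower in male excitatory nuclei. For the means over nuclei the cause was not tested. The excitatory Mgll ratio left its interval in female nuclei, at 0.10, and the other 17 recomputed Mgll ratios stayed within theirs. Of 43 named excitatory genes past 1.5-fold, 33 stayed past it in male nuclei and 40 in female nuclei, and of 51 inhibitory ones 44 and 47. Past 0, the log2 ratio of Hmcn1 turned to 0.085 in male excitatory nuclei and that of Ciart to -0.039 in thinned ones. Of 330 recomputed list medians, 310 stayed within the counting width of their members. No paired analysis was possible because each genotype has 1 library.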
